A study of Homo sapiens with 9 samples.

Results

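Acyl-CoA synthetases and lysophospholipid acyltransferases decide which fatty acids enter the phospholipids of a membrane. Their RNA was followed here through 10 genes chosen by name: the acyl-CoA synthetases ACSL1, ACSL3, ACSL4 and ACSL5, and the lysophospholipid acyltransferases LPCAT1, LPCAT2, LPCAT3, LPCAT4, MBOAT1 and MBOAT2. They are 10 of the 58735 genes in the count tables, and all 10 were among the 16188 genes with enough reads to be tested.

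The cells were MDA-MB-231, an established human triple-negative breast cancer cell line. Poly(A) RNA was sequenced in 9 libraries of 3 groups: 3 from cells treated with the solvent DMSO (vehicle), 3 from cells that survived rising amounts of erastin (erastin-R) and 3 from cells that survived rising amounts of RSL3 (RSL3-R). Erastin blocks the cystine importer system xc-, and RSL3 inhibits the lipid peroxide reductase GPX4. Both drugs kill by ferroptosis. Each resistant group is a surviving population of 1 line, and the labels do not say whether the 3 libraries of a group came from separate cultures, so the p values measure only the spread between these libraries. Because each library is a bulk population, less RNA per cell and fewer cells with the RNA cannot be told apart.

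Total counts per library ranged from 15405102 to 17273464. Levels are given as CPM, the normalised read count after TMM scaling to the library size, and the floor of 3 counts lay between 0.175 and 0.193 CPM. Erastin-R replicate 1 stood apart from the other two libraries of its group, with a chi-square per gene of 23.9 and 23.3 between their counts and Pearson r of 0.986 for both, against 2.43 to 5.28 and 0.991 to 0.992 for every other pair within a group. Against vehicle libraries the chi-square per gene of erastin-R replicate 1 was 54.8 to 57.55, beside 69.1 to 76.8 for erastin-R replicates 2 and 3. Against RSL3-R libraries it was 41.8 to 44.6, beside 61.9 to 69.2, so this library lay nearer to both other groups. The cause of this was not tested, and the calls for the 10 genes are also given without erastin-R replicate 1. All 6 markers of a mesenchymal triple-negative line were above 1 CPM in every group, with a summed level of 5380 to 5552 CPM in vehicle, 4173 to 4421 CPM in erastin-R and 4783 to 4891 CPM in RSL3-R libraries. Among them FN1 was at 2143 to 2248, 992 to 1118 and 1816 to 1859 CPM, and CAV1 at 663 to 693, 303 to 314 and 365 to 384 CPM in the same order. CD44 was also below vehicle in both survivors. AXL went the other way, at 769 to 803, 1102 to 1236 and 1014 to 1092 CPM in that order. VIM and SPARC overlapped with vehicle in erastin-R, and in RSL3-R libraries VIM was lower and SPARC higher than in vehicle. ESR1 and PGR, the hormone receptors, were below 1 CPM in every library. Of the 9 luminal markers that include them, 7 averaged above 1 CPM in vehicle, 6 in erastin-R and 7 in RSL3-R libraries. GATA3 was at 4.89 to 6.36, 5.54 to 7.11 and 3.16 to 5.47 CPM in these groups, and CDH1 at 0.865 to 1.67, 0.382 to 1.22 and 3.21 to 3.80 CPM. The summed level of 9 luminal markers was 563 to 588 CPM in vehicle, 298 to 341 CPM in erastin-R and 400 to 433 CPM in RSL3-R libraries, mostly KRT8, KRT18 and ERBB2. The leukocyte list, with CD68, CD3E and MS4A1 at or near 0, summed to at most 1.86 CPM. PTPRC, also in this list, was at 0.247 to 0.656 CPM in vehicle, 0.182 to 0.655 in erastin-R and 1.225 to 1.49 in RSL3-R libraries. The fibroblast list summed to 14.6 to 17.2, 13.6 to 17.3 and 20.6 to 22.9 CPM in the same order. Within it PDGFRB was at 6.79 to 7.27, 5.72 to 7.11 and 10.8 to 11.9 CPM. COL1A1 was at 6.85 to 8.82, 7.86 to 9.91 and 9.03 to 11.98 CPM. DCN went the other way, at 0.802 to 1.07, 0.0596 to 0.243 and 0.117 to 0.322 CPM. Of the endothelial list, CDH5 was at most 0.182 CPM and VWF at most 0.382 CPM, while PECAM1 was 9.50 to 10.9, 1.27 to 2.14 and 11.6 to 13.8 CPM in the 3 groups. The part of these marker differences in the results below was not tested.

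Ferroptosis is cell death by peroxidation of phospholipids that carry polyunsaturated fatty acids. A free fatty acid is first joined to coenzyme A by an acyl-CoA synthetase. A lysophospholipid acyltransferase then places the acyl chain on a phospholipid that has lost one chain, the step known as the Lands cycle. ACSL4, which prefers arachidonic and adrenic acid, and LPCAT3, which places arachidonate in phosphatidylcholine and phosphatidylethanolamine, are known to favour ferroptosis. ACSL3, which activates monounsaturated fatty acids, and MBOAT1 and MBOAT2, which place monounsaturated chains in phosphatidylethanolamine, are known to oppose it.

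Levels between genes were compared per kilobase of the exon length given in the count tables. The order, shares and ratios per kilobase depend on these gene models. Those of ACSL4 and LPCAT1 run past the 3′ end of the RefSeq gene, and that of MBOAT1 stops short of it. How far this moves the values between genes was not tested. In vehicle cells LPCAT1 was the highest of the 10, at 41.8 ± 0.35 CPM per kilobase (SD, n = 3). ACSL3 (26.3 ± 1.19) and ACSL4 (25.4 ± 1.98) followed with overlapping ranges, and then ACSL5 (20.3 ± 0.67), LPCAT4 (17.2 ± 1.71) and ACSL1 (9.26 ± 0.55), each apart from its neighbours in all 3 libraries. MBOAT2 (3.17 ± 0.086) and MBOAT1 (3.04 ± 0.30) overlapped, as did LPCAT2 (2.13 ± 0.23) and LPCAT3 (2.07 ± 0.15). The place of LPCAT3 in this order is not settled, since most of its exon bases overlap another gene. If all its reads came from its own bases, which was not tested, it would be at 5.59 to 6.45 CPM per kilobase in vehicle, above MBOAT2, MBOAT1 and LPCAT2. In RSL3-R cells the order at the top was another: ACSL4 was first at 31.5 ± 1.41 CPM per kilobase, then ACSL3 at 27.9 ± 0.86, and LPCAT1 (23.5 ± 0.31) overlapped with LPCAT4 (23.1 ± 1.41). In erastin-R cells LPCAT1 was again first at 45.2 ± 5.08, followed by ACSL4 at 28.1 ± 1.89, LPCAT4 at 23.1 ± 0.51 and ACSL3 at 20.2 ± 1.31 CPM per kilobase.

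**Figure D1:**
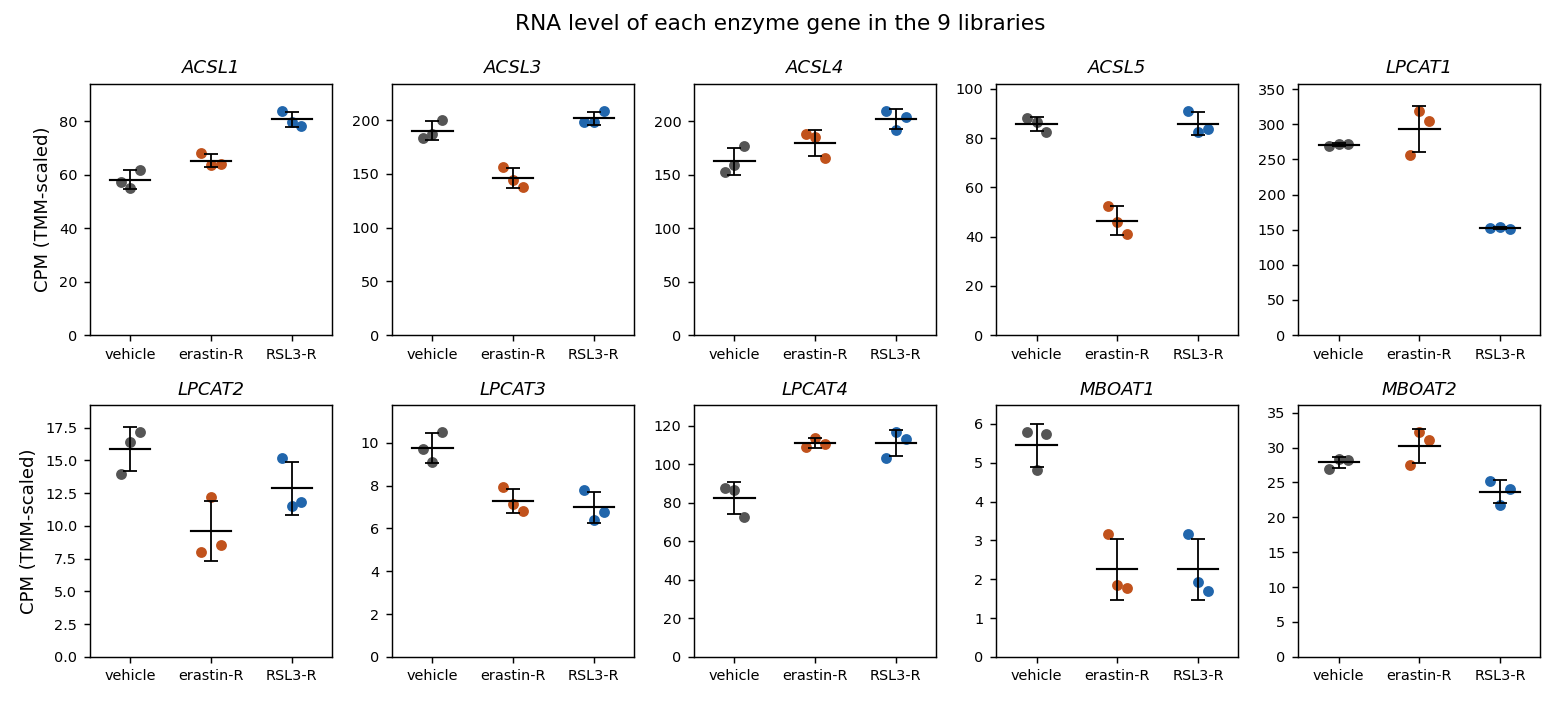
RNA level (CPM, TMM-scaled, linear axes from 0) of the 10 genes in 3 vehicle, 3 erastin-R and 3 RSL3-R libraries. Points are libraries, and the bar and whiskers are the mean and SD (n = 3). ACSL3 and ACSL5 were low in erastin-R only, LPCAT1 was low in RSL3-R only, and MBOAT1 and LPCAT3 were low in both against vehicle.

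Each resistant group was compared with vehicle, and RSL3-R with erastin-R, with edgeR's quasi-likelihood test and Benjamini-Hochberg adjustment over the 16188 genes tested. A gene passed the test at an adjusted p below 0.05, and the study's own threshold adds a change of at least 1 in either direction on the log2 scale. In erastin-R cells 1 of the 10 genes was higher (LPCAT4) and 5 were lower (ACSL3, ACSL5, LPCAT2, LPCAT3 and MBOAT1). Among all genes tested 27.1% were higher and 26.8% lower. The number higher was 3 without vehicle replicate 3 (with ACSL1 and ACSL4), 2 without erastin-R replicate 1 (with LPCAT1) and 2 without erastin-R replicate 3 (with ACSL4). In RSL3-R cells 3 were higher (ACSL1, ACSL4 and LPCAT4) and 4 lower (LPCAT1, LPCAT3, MBOAT1 and MBOAT2), beside 23.8% and 24.9% of all genes. MBOAT1 was the only gene of the 10 past the fold threshold, lower in both groups. Of all genes, 6.66% passed it downward and 6.70% upward in erastin-R, and 4.08% and 6.02% in RSL3-R cells. The 10 log2 fold changes had a median of -0.13 in erastin-R and of -0.12 in RSL3-R cells, beside 0.00 and 0.01 over all genes. Both comparisons share the 3 vehicle libraries. Without erastin-R replicate 1, the 5 genes lower and LPCAT4 higher in erastin-R all kept their call, with log2 fold changes of -0.43 for ACSL3, -0.99 for ACSL5, -0.62 for LPCAT2, -0.49 for LPCAT3, -1.59 for MBOAT1 and 0.44 for LPCAT4, and LPCAT1 was called as well (0.20, adjusted p = 2.14e-04). All genes called then numbered 4917 higher and 5040 lower in erastin-R, against 4390 and 4345 with it, and 8 of the 10 were called in RSL3-R, with LPCAT2 as the fifth lower gene.

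The difference between the survivors was tested directly, RSL3-R against erastin-R. There 4 of the 10 stood higher in the RSL3-R libraries (ACSL1, ACSL3, ACSL5 and LPCAT2) and 2 lower (LPCAT1 and MBOAT2), beside 22.3% and 26.9% of all genes. By edgeR, DESeq2 and limma 0 of the 10 passed the fold threshold there, which 6.86% of all genes passed upward and 3.48% downward. Without erastin-R replicate 1, LPCAT1 passed it, so that the count was 1. The 3 libraries of the groups did not overlap for 7 of the 10 genes in erastin-R against vehicle, 7 in RSL3-R against vehicle and 6 in RSL3-R against erastin-R. The corresponding shares of all genes tested were 57.9%, 61.9% and 55.2%.

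**Figure D2:**
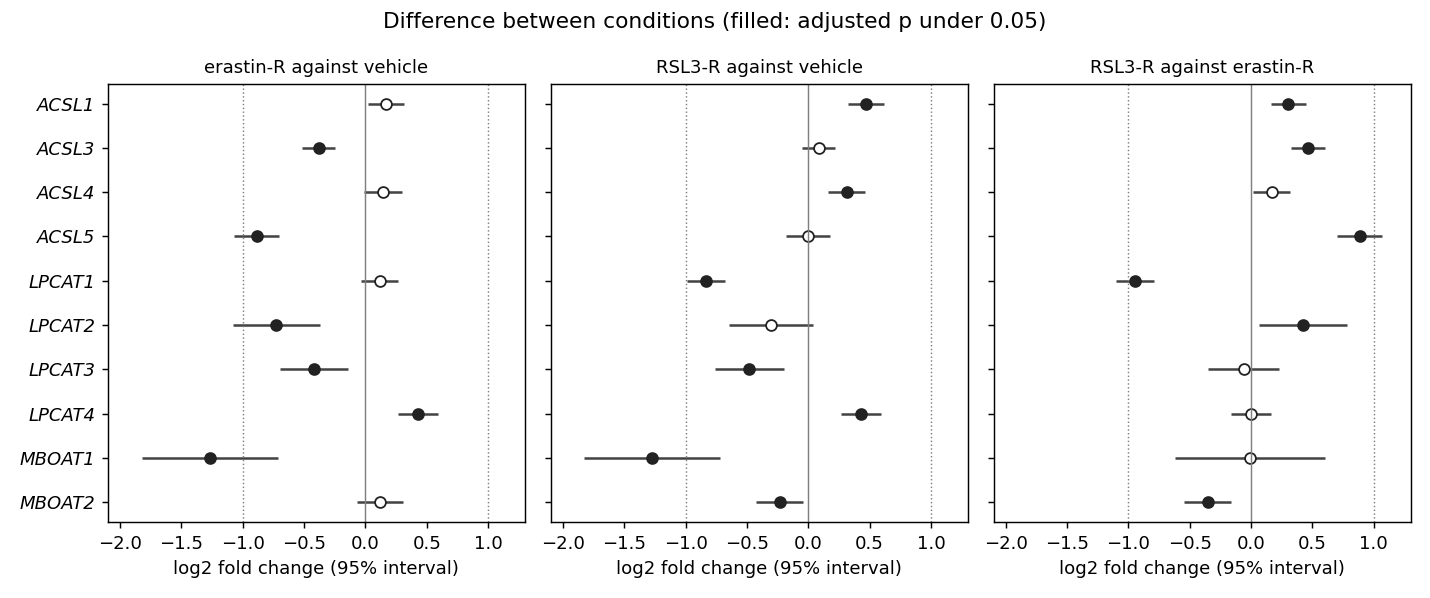
Log2 fold change of each gene with its 95% interval (horizontal line) in the 3 comparisons, from 1 edgeR model of all 9 libraries. Filled points have an adjusted p below 0.05 and dotted lines mark an absolute log2 fold change of 1. The MBOAT1 points lie at -1.27 in both comparisons with vehicle, ACSL5 at -0.88 in erastin-R only and LPCAT1 at -0.83 in RSL3-R only.

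ACSL4, whose preference for long polyunsaturated acids makes it a widely used marker of ferroptosis sensitivity, rose in RSL3-R cells. It lies on the minus strand at chrX:109624244-109733403 (GRCh38, GENCODE 29). Its levels were 152.4, 158.9 and 176.9 CPM in vehicle libraries 1 to 3, 188.1, 185.7 and 166.0 CPM in erastin-R, and 210.1, 192.3 and 203.9 CPM in RSL3-R libraries. All 3 RSL3-R libraries lay above both other groups, while vehicle and erastin-R overlapped. ACSL4 rose by 0.31 on the log2 scale in RSL3-R (SE 0.071, adjusted p = 0.00244). In erastin-R its log2 fold change was 0.15 (95% interval -0.0082 to 0.30, adjusted p = 0.101), which passed the test without vehicle replicate 3 (log2 fold change 0.21, adjusted p = 0.0376) or without erastin-R replicate 3 (0.20, adjusted p = 0.0376). RSL3-R exceeded erastin-R by 0.17 (adjusted p = 0.0661), and by 0.20 without erastin-R replicate 1 (adjusted p = 0.00485). The stretch of the RefSeq promoter window just upstream of the GENCODE gene (GRCh38.p14, chrX:109733404-109733507, minus strand, 5′ to 3′) is shown because ACSL4 and LPCAT1 were the 2 genes of this set whose promoter windows hold TGACGT, the core of the cyclic AMP response element, in capitals.
ACSL4: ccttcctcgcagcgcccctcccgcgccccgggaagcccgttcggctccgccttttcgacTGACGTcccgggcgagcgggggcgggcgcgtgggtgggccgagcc

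ACSL3, which sits on the endoplasmic reticulum and on lipid droplets and activates monounsaturated fatty acids, fell in erastin-R cells only among the comparisons with vehicle. Its gene lies at chr2:222860934-222944639 on the plus strand. The vehicle libraries held 183.5, 187.4 and 199.98 CPM, the erastin-R libraries 156.3, 144.4 and 137.6 CPM, and the RSL3-R libraries 198.1, 198.1 and 208.9 CPM. Every erastin-R library lay below every other library. Against vehicle the log2 value was -0.38 in erastin-R (SE 0.063, adjusted p = 1.78e-04) and 0.08 in RSL3-R cells (95% interval -0.051 to 0.22, adjusted p = 0.293). The difference of 0.46 between RSL3-R and erastin-R cells passed the test (SE 0.063, adjusted p = 4.26e-05).

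ACSL5, an enzyme of the mitochondrial outer membrane and the endoplasmic reticulum, had the largest fall among the 4 synthetases. It lies at chr10:112374018-112428380 on the plus strand. Vehicle libraries held 88.1, 86.7 and 82.7 CPM, and RSL3-R libraries 91.2, 82.5 and 83.9 CPM. In erastin-R libraries the level was 52.6, 45.9 and 40.9 CPM, with no overlap with any other library. This was 1.85-fold lower than vehicle (log2 fold change -0.88, SE 0.085, adjusted p = 1.27e-06). Against vehicle, RSL3-R cells were at 0.00 on the log2 scale, with a 95% interval from -0.18 to 0.18, and the difference between both survivors was 0.89 (SE 0.085, adjusted p = 2.14e-06). The ACSL5 exons share 8.6% of their bases with other annotated genes. Among these is ZDHHC6 on the opposite strand, at 38.3 to 50.6 CPM over all libraries. The part of such genes in the ACSL5 values was not tested.

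ACSL1, which supplies acyl-CoA for triglyceride synthesis and for oxidation, was highest in RSL3-R cells. The gene is on the minus strand at chr4:184755595-184826818. The levels were 57.4, 55.2 and 61.9 CPM in vehicle, 68.3, 63.6 and 64.1 CPM in erastin-R, and 84.0, 79.8 and 78.4 CPM in RSL3-R libraries. No library of one group overlapped with another group. ACSL1 rose by 0.47 on the log2 scale in RSL3-R cells (SE 0.068, adjusted p = 5.75e-05), and RSL3-R exceeded erastin-R by 0.31 (SE 0.067, adjusted p = 0.00193). The erastin-R value of 0.17 just missed the test (SE 0.068, adjusted p = 0.0512). Without vehicle replicate 3 it was 0.21 and passed (adjusted p = 0.0318).

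The make-up of the synthetase RNA within each library was computed after these values had been seen and is given without a test. Per kilobase, the 4 genes summed to a median of 79.9 CPM in vehicle, 69.8 CPM in erastin-R and 92.9 CPM in RSL3-R libraries. ACSL4 made up 30.1% to 32.6% of that sum in vehicle, 39.5% to 41.5% in erastin-R and 33.5% to 34.5% in RSL3-R libraries. The share of ACSL5 was 23.1% to 26.3% in vehicle, 14.9% to 16.7% in erastin-R and 21.3% to 22.7% in RSL3-R. The ratio of ACSL4 to ACSL3 per kilobase, of the synthetase that prefers polyunsaturated acids to the one that activates monounsaturated ones, was 0.938 to 0.998 in vehicle libraries. It was 1.36 to 1.45 in erastin-R and 1.10 to 1.197 in RSL3-R libraries, so the 3 groups did not overlap. In erastin-R cells the difference lay mostly in ACSL3, and in RSL3-R cells in ACSL4.

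**Figure D3:**
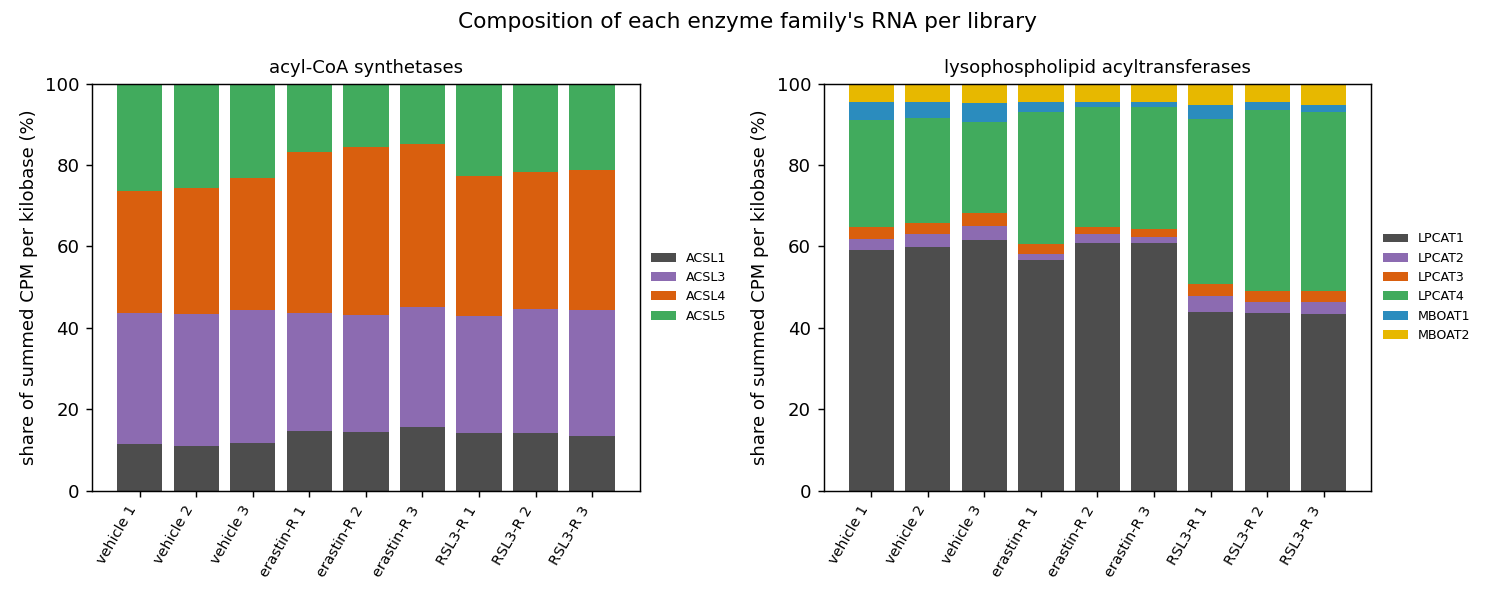
Share of each gene (%) in the summed CPM per kilobase of the 4 acyl-CoA synthetases (left) and of the 6 lysophospholipid acyltransferases (right), 1 bar per library. The ACSL5 share was smallest in the erastin-R libraries, and LPCAT1 and LPCAT4 made up nearly equal shares in the RSL3-R libraries only.

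LPCAT1, which places saturated chains in phosphatidylcholine and is best known from lung surfactant, was the most abundant acyltransferase of the 6 in vehicle cells and fell in RSL3-R cells. Its locus is chr5:1456480-1523977 on the minus strand, with no exon base shared with another annotated gene. Vehicle libraries held 268.6, 272.4 and 272.7 CPM, and RSL3-R libraries 152.2, 154.6 and 150.5 CPM. The erastin-R libraries were more spread, at 256.7, 319.6 and 305.2 CPM, with replicate 1 below and the other two above the vehicle range. LPCAT1 was 1.78-fold lower in RSL3-R than in vehicle cells (log2 fold change -0.83, SE 0.073, adjusted p = 5.74e-07) and 1.93-fold lower than in erastin-R cells (-0.95, SE 0.073, adjusted p = 2.82e-07). The erastin-R value against vehicle was 0.12 (95% interval -0.038 to 0.27, adjusted p = 0.190), and without erastin-R replicate 1 it was 0.20 and passed (adjusted p = 2.14e-04). The difference from erastin-R cells was -1.04 without that library. The stretch of its RefSeq promoter window upstream of the GENCODE gene (GRCh38.p14, chr5:1523978-1524210, minus strand, 5′ to 3′) holds the same motif in reverse orientation, in capitals, 28 bases upstream of the RefSeq start.
LPCAT1: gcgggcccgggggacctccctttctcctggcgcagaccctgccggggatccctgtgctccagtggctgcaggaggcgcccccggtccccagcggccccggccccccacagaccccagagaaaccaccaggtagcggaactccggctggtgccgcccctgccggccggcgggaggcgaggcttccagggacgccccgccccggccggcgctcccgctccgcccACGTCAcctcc

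LPCAT4, which acylates lysophosphatidylethanolamine and lysophosphatidylcholine with monounsaturated chains, was the only gene of the 10 called higher in both survivors by the test of all 9 libraries. The locus is chr15:34358618-34367278, minus strand. The levels were 87.5, 86.8 and 72.9 CPM in vehicle, 108.9, 113.7 and 110.5 CPM in erastin-R, and 103.5, 116.7 and 113.0 CPM in RSL3-R libraries. Every resistant library lay above every vehicle library. The rise over vehicle was 0.43 on the log2 scale in erastin-R (SE 0.076, adjusted p = 3.07e-04) and 0.43 in RSL3-R cells (SE 0.076, adjusted p = 3.54e-04). Between both survivors it was 0.00, with a 95% interval from -0.16 to 0.16. In the RSL3-R libraries LPCAT4 reached 40.5% to 44.5% of the summed acyltransferase RNA per kilobase and LPCAT1 43.4% to 44.0%. In vehicle libraries the shares were 22.3% to 26.1% and 59.2% to 61.6%.

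LPCAT2, which also makes platelet-activating factor from its lyso precursor in inflammatory cells, was low and fell in erastin-R cells. It lies on the plus strand at chr16:55508998-55586670. Vehicle libraries held 14.0, 16.4 and 17.1 CPM, erastin-R libraries 8.04, 12.2 and 8.51 CPM, and RSL3-R libraries 15.2, 11.6 and 11.8 CPM. The erastin-R libraries lay below vehicle, and the RSL3-R libraries overlapped with both groups. Against vehicle the log2 value was -0.73 in erastin-R (SE 0.16, adjusted p = 0.00194) and -0.30 in RSL3-R cells (95% interval -0.65 to 0.042, adjusted p = 0.136). The latter passed without erastin-R replicate 1 (-0.31, adjusted p = 0.0427). RSL3-R exceeded erastin-R by 0.42 at an adjusted p of 0.0481. That call was lost in 10 of 16 alternative settings, among them without RSL3-R replicate 1 (0.32, adjusted p = 0.166), RSL3-R replicate 2 (0.50, adjusted p = 0.0502), erastin-R replicate 1 (0.31, adjusted p = 0.0815) or erastin-R replicate 3 (0.34, adjusted p = 0.155). Leaving out vehicle replicate 1, 2 or 3 also lost it (adjusted p = 0.0521, 0.0627 and 0.0604).

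LPCAT3, the main acyltransferase for arachidonate, fell in both survivors. The gene is on the minus strand at chr12:6976186-7018510. The levels were 9.72, 9.08 and 10.5 CPM in vehicle, 7.92, 7.13 and 6.81 CPM in erastin-R, and 7.80, 6.40 and 6.78 CPM in RSL3-R libraries. All 6 resistant libraries lay below all 3 vehicle libraries. Against vehicle it changed by -0.42 on the log2 scale in erastin-R (SE 0.13, adjusted p = 0.0138) and -0.48 in RSL3-R cells (SE 0.13, adjusted p = 0.00741), and -0.06 between the survivors (95% interval -0.35 to 0.23). The erastin-R call was lost without vehicle replicate 3 (-0.37, adjusted p = 0.0531) or without erastin-R replicate 3 (-0.37, adjusted p = 0.0501).

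The LPCAT3 count needs care, because 3100 of its 4725 exon bases (65.6%) overlap exons of EMG1, a ribosome biogenesis gene on the opposite strand. Whether the counting used strand is not given in the sources used here, and without strand, reads of both genes in that stretch cannot be told apart. EMG1 itself had 36.3 to 41.4 CPM in vehicle, 28.2 to 34.7 CPM in erastin-R and 23.2 to 24.7 CPM in RSL3-R libraries, with log2 fold changes of -0.28 (adjusted p = 0.0195) and -0.72 (adjusted p = 2.34e-05) against vehicle. The former was lost without vehicle replicate 1 (adjusted p = 0.0576) or 2 (adjusted p = 0.0827). The part of EMG1 in the LPCAT3 values was not tested. If all LPCAT3 reads came from the 1625 bases that are its own, its level would be 5.59 to 6.45 CPM per kilobase in vehicle, 4.19 to 4.87 in erastin-R and 3.94 to 4.80 in RSL3-R libraries. The stretch of its RefSeq promoter window upstream of the gene (GRCh38.p14, chr12:7018511-7018726, minus strand, 5′ to 3′) is shown because it carries CCAAT in more than 1 place, in capitals.
LPCAT3: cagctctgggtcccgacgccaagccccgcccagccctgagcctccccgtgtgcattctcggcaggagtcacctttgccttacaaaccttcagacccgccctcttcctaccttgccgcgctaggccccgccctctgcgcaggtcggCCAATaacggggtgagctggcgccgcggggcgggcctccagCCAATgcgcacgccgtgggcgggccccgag

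MBOAT1, which places oleate in phosphatidylethanolamine and phosphatidylserine and is induced by the oestrogen receptor in receptor-positive cells, had the largest fold change of the 10. It lies on the minus strand at chr6:20102145-20212399. The counts were 97, 78 and 93 in vehicle, 53, 29 and 29 in erastin-R, and 49, 31 and 29 in RSL3-R libraries. These are 5.78, 4.82 and 5.74 CPM, then 3.16, 1.85 and 1.76 CPM, then 3.16, 1.93 and 1.69 CPM. Every resistant library lay below every vehicle library, and replicate 1 was the highest of each resistant group. MBOAT1 was 2.40-fold lower in erastin-R (log2 fold change -1.27, SE 0.26, adjusted p = 9.14e-04) and 2.42-fold lower in RSL3-R cells (-1.27, SE 0.26, adjusted p = 0.00104). Between the survivors the log2 fold change was -0.01, with an interval as wide as -0.62 to 0.60 at these counts. The gene model of the count tables covers 1794 exon bases, and the RefSeq gene runs 2461 bases further at its 3′ end, where reads were not counted.

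MBOAT2, which places monounsaturated chains in phosphatidylethanolamine and is induced by the androgen receptor in receptor-positive cells, overlapped with MBOAT1 in level per kilobase in vehicle cells. It lies on the minus strand at chr2:8852690-9003813. Vehicle libraries held 27.0, 28.4 and 28.2 CPM, erastin-R libraries 27.5, 32.2 and 31.1 CPM, and RSL3-R libraries 25.1, 21.8 and 24.1 CPM. RSL3-R libraries lay below all others, and erastin-R overlapped with vehicle. RSL3-R against erastin-R stood at -0.35 on the log2 scale (SE 0.089, adjusted p = 0.00490). Against vehicle the RSL3-R value was -0.23 (SE 0.090, adjusted p = 0.0438), and this call was lost in 12 of 16 alternative settings, with DESeq2 (adjusted p = 0.0776) and without any one vehicle or RSL3-R library (adjusted p from 0.0667 to 0.168). Erastin-R against vehicle gave 0.12 (95% interval -0.071 to 0.31, adjusted p = 0.275). The ratio of MBOAT1 to MBOAT2 per kilobase was 0.832 to 1.05 in vehicle, 0.278 to 0.563 in erastin-R and 0.344 to 0.616 in RSL3-R libraries.

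By the correlation of log2 CPM over the 9 libraries, the protein-coding genes most like MBOAT1 were EIF4E2, a cap-binding protein (Pearson r = 0.993), and PNRC2, a cofactor of mRNA decay (r = 0.982). EIF4E2 ranged from 47.4 to 50.5 CPM in vehicle, from 38.4 to 43.7 in erastin-R and from 37.2 to 42.4 in RSL3-R libraries. PNRC2 ranged from 82.8 to 85.4, from 60.4 to 67.2 and from 61.8 to 73.0 CPM in the same groups. The 9 points share the 3 groups, and the r describes these libraries only.

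Promoter windows of 300 bases, from 250 before to 50 after a RefSeq start, were at hand for 8 of the 10 genes (not for LPCAT2 and MBOAT1). The most upstream window at hand was used for each gene. For ACSL1 and ACSL5 that window lay inside the gene, downstream of the RefSeq gene start. The promoter at the most upstream start of these genes was therefore not searched. They were searched on both strands for 5 motifs, none of which overlapped another where found. TGACGT stood in the windows of ACSL4 and LPCAT1, which moved in opposite directions in RSL3-R cells, and in 8.32% of 27305 promoters. CCAAT stood in those of ACSL3 and LPCAT3 and in 35.7% of all. The E-box CACGTG (7.40% of all), the amino acid response element TGATGNAA (3.67%) and the sterol regulatory element TCACNCCAC (1.13%) were in none of the 8 windows. These are matches of letters and not binding sites.

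The 10 genes were set beside 64 genes of the same pathway in 5 lists, of which 50 had enough reads to be tested. The other 14, among them ACSL6, SLC27A2, PLA2G7 and CD36, had at most 13 counts in any library. Of the 50, 15 were higher and 14 lower in erastin-R, 9 higher and 10 lower in RSL3-R, and 10 higher and 17 lower in RSL3-R against erastin-R cells, beside the shares of all genes given above.

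Among the other acyl-CoA synthetases, 3 of 10 tested rose and 4 fell in erastin-R cells, and the list had a median of -0.22 on the log2 scale. In RSL3-R cells 4 rose and 0 fell by edgeR, with a median of 0.23. For that 0, DESeq2 gave 0, limma 2 and the unadjusted p 2 genes. Among the other glycerophospholipid acyltransferases, 4 of 13 rose and 3 fell in erastin-R cells, and 0 rose and 2 fell in RSL3-R cells by edgeR, with medians of -0.08 and -0.07. For that 0, DESeq2 gave 0, limma 3 and the unadjusted p 1. Phospholipases A2 release chains that the acyltransferases replace, but their list also holds acetylhydrolases of platelet-activating factor. Of its 11 genes tested, 3 were higher and 3 lower in erastin-R, and 2 higher and 3 lower in RSL3-R cells. The medians were 0.03 and 0.04. The acyl-CoA thioesterases, which undo the synthetase step, had 0 of 7 higher and 3 lower in erastin-R, and 2 higher and 1 lower in RSL3-R cells, with medians of -0.20 and 0.13. The 0 was the same by DESeq2, limma and the unadjusted p. Of the fatty acid uptake and acyl-CoA binding genes, 5 of 9 rose and 1 fell in erastin-R, with a median of 0.25, and 1 rose and 4 fell in RSL3-R cells, with a median of -0.13. The RSL3-R counts were the less stable ones. Without erastin-R replicate 1, which is in neither group but in the shared estimate of the spread, the genes called in RSL3-R numbered 8 synthetases, 5 acyltransferases, 8 phospholipases and 5 thioesterases. Without vehicle replicate 1, 1 acyltransferase was called.

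ACSS3, a mitochondrial short-chain synthetase, passed the fold threshold in RSL3-R cells with 74.6 to 84.3 CPM against 35.9 to 37.3 CPM in vehicle (log2 fold change 1.14, adjusted p = 2.80e-08). It also rose in erastin-R cells, to 54.5 to 61.3 CPM (log2 fold change 0.66, adjusted p = 4.74e-06). PLA2G4C, a cytosolic phospholipase A2, was at 5.03 to 6.59 CPM in RSL3-R and at 1.295 to 2.04 CPM in vehicle libraries (log2 fold change 1.91, adjusted p = 1.35e-05). Its erastin-R libraries held 0.655 to 1.15 CPM, below both other groups (log2 value against vehicle -0.74, adjusted p = 0.0474). That call was lost with DESeq2 (adjusted p = 0.0598), with no filter on low counts (0.0603), with only the 2 groups compared (0.0858) and without any 1 of vehicle replicates 1 and 2, erastin-R replicates 1 and 3 and the RSL3-R libraries (adjusted p from 0.0504 to 0.191, log2 value -0.52 without erastin-R replicate 1). PAFAH1B3, a catalytic subunit of an acetylhydrolase of platelet-activating factor, was at 11.05 to 11.4 CPM in RSL3-R against 21.7 to 24.4 CPM in vehicle libraries (log2 fold change -1.06, adjusted p = 3.45e-05). DBI, the main acyl-CoA binding protein, was the only list gene past the fold threshold in erastin-R cells, with 27.7 to 51.0 CPM against 83.6 to 92.1 CPM in vehicle (log2 fold change -1.27, adjusted p = 1.99e-05). It had 47.5 to 47.9 CPM in RSL3-R libraries (log2 fold change -0.87, adjusted p = 5.08e-04).

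A few more list genes were chosen after their values had been seen, so their changes do not stand for those of their lists. SLC27A1, a fatty acid transport protein with synthetase activity, rose in both survivors, by 0.91 in erastin-R (adjusted p = 3.29e-05) and 0.87 in RSL3-R cells (adjusted p = 5.49e-05) on the log2 scale. ACSS2, which makes acetyl-CoA from acetate, rose by 0.97 in RSL3-R cells (adjusted p = 2.19e-08), to 232 to 242 CPM against 117.5 to 125.9 CPM in vehicle. In erastin-R it went the other way, with 103 to 116 CPM and a log2 value of -0.15 (adjusted p = 0.0449). That call was lost with DESeq2 (adjusted p = 0.0503), with no filter on low counts (0.0924), with the replicate block (0.0588), with only the 2 groups compared (0.102) and without any 1 of vehicle replicates 2 and 3, erastin-R replicates 1 and 2 and the RSL3-R libraries (adjusted p from 0.0549 to 0.147). TAZ, the cardiolipin-remodelling tafazzin, rose by 0.98 in erastin-R cells (adjusted p = 2.03e-06), to 35.6 to 46.1 CPM against 20.8 to 21.8 CPM. Its RSL3-R libraries, at 23.8 to 26.4 CPM, also lay above vehicle, with a log2 value of 0.25 (adjusted p = 0.0583). That value passed with RLE scaling (adjusted p = 0.0490), with limma (0.0131) and without erastin-R replicate 1 (0.0101), among other alternatives. Without erastin-R replicate 1, the rises in erastin-R were 1.04 for SLC27A1 and 1.08 for TAZ, past the fold threshold. MBOAT7, which belongs to the same protein family as MBOAT1, MBOAT2 and LPCAT3 and places arachidonate in phosphatidylinositol, rose by 0.29 in erastin-R cells (adjusted p = 0.00242). In RSL3-R cells it stood at -0.23 against vehicle (adjusted p = 0.0125), a call lost without vehicle replicate 1 (adjusted p = 0.0601), RSL3-R replicate 1 (adjusted p = 0.111) or RSL3-R replicate 3 (adjusted p = 0.0673). RSL3-R against erastin-R was at -0.52 (adjusted p = 3.05e-05). ACOT1 and ACOT2 of the thioesterase list are near-identical neighbours whose reads may be split between them, and their values are uncertain.

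**Figure D4:**
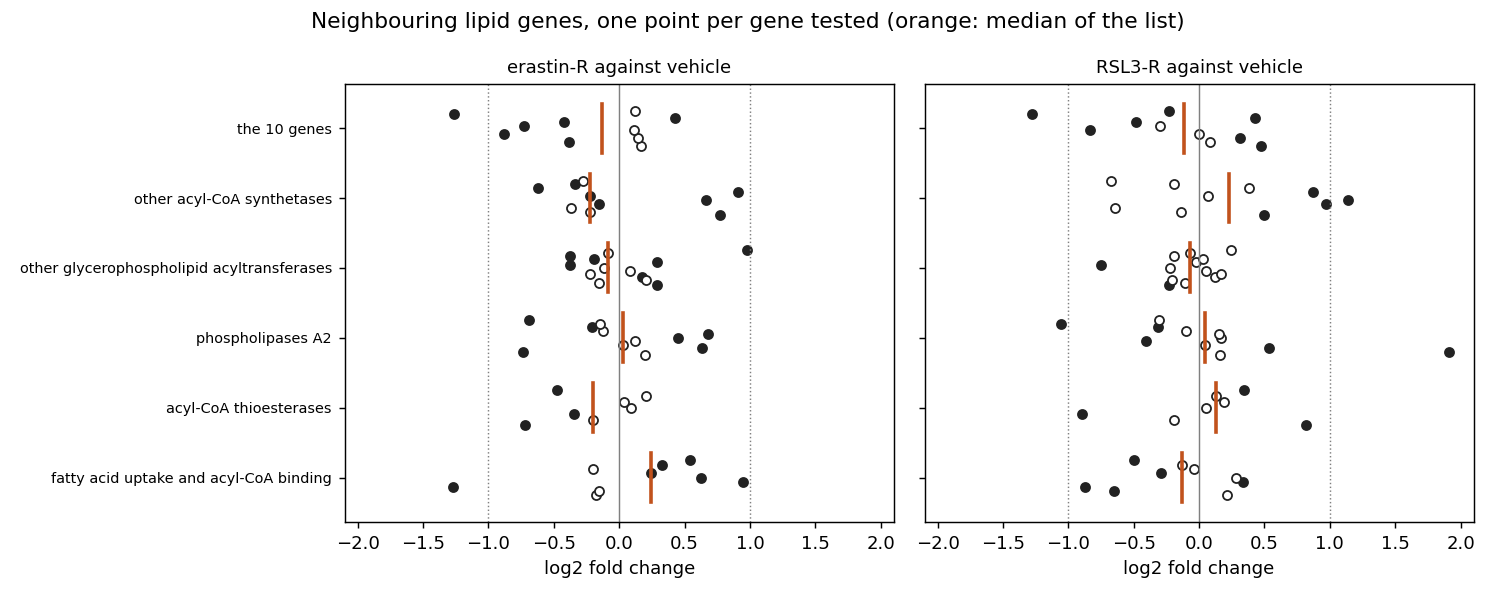
Log2 fold change against vehicle of each tested gene (points, filled where the adjusted p is below 0.05) for the 10 genes and the 5 lists, with the median of each list as an orange line and dotted lines at an absolute value of 1. The points past the dotted lines are MBOAT1 and DBI in erastin-R, and MBOAT1, ACSS3, PLA2G4C and PAFAH1B3 in RSL3-R cells.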

How the data were processed

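MDA-MB-231 poly(A) RNA was sequenced by the study (NEBNext Ultra libraries, Illumina) in 3 vehicle, 3 erastin-R and 3 RSL3-R libraries, grouped by the treatment in the sample labels. The authors deposited, for each library, a count per gene without normalization and FPKM values. The submitters' processing notes name HISAT2 2.0.5 and featureCounts 1.5.0-p3, and the study's methods state uniquely mapped reads in exons. Gene identifiers, starts and ends of all 58735 genes equal those of GENCODE 29 (GRCh38). The deposited FPKM entered only 1 alternative, a filter.

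The test was edgeR 4.0.16 under R 4.3.3: filterByExpr by group (minimum count 10, 16188 genes kept), TMM, and the quasi-likelihood test in 1 model of all 9 libraries with no covariate. Each standard error is the absolute log2 fold change divided by the root of its F value. Total counts of 15405102 to 17273464 and a coefficient of variation of 8.56% between libraries set the precision. The floor covers counting error only. Alternatives were RLE scaling, quantile normalization with limma 3.58.1, DESeq2 1.42.0, no filter, a mean FPKM of at least 1, only the 2 groups compared, the replicate number as a block, the unadjusted p and each library left out. The test was tried on simulated counts. Promoter windows came from RefSeq (GRCh38.p14). Tables and figures were made with Python 3.11.15, pandas 2.3.3 and matplotlib 3.10.9.

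Named genes are the 10 genes, markers, list genes that passed both thresholds (adjusted p below 0.05, log2 change of at least 1 either way) against vehicle (at most 3 each way per list), and the 2 protein-coding genes most correlated with each of the 10 past them. Outside this rule, SLC27A1, ACSS2, TAZ, MBOAT7, EMG1, ACOT1, ACOT2 and some untested list genes were named after their values had been seen. The 10 genes and the lists were chosen with earlier results of these data known.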

Additional observations from a re-analysis of the deposited data

Results flagged for a closer look

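Of the 10 genes, 6 differed between the survivors of the 2 drugs by the test of RSL3-R against erastin-R itself (edgeR's quasi-likelihood test, adjusted over all genes tested): 4 higher and 2 lower in RSL3-R, beside 22.3% and 26.9% of all genes. The log2 difference was 0.31 for ACSL1, 0.46 for ACSL3 and 0.89 for ACSL5, each higher in RSL3-R in all 3 libraries. It was -0.95 for LPCAT1 and -0.35 for MBOAT2, each lower in RSL3-R in all 3 libraries. For LPCAT2 it was 0.42 with overlapping libraries (adjusted p = 0.0481), and that call was lost in 10 of 16 alternatives. Without erastin-R replicate 1, which stood apart from its group, the differences were 0.34, 0.51, 0.98, -1.04, -0.42 and 0.31 (adjusted p = 0.0815 for LPCAT2, the last) in the order given, and ACSL4 was called in place of LPCAT2 (0.20, adjusted p = 0.00485). Single values were not checked for outliers, since the rule used for that needs at least 4 samples in a group.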

How the results depend on the processing

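Of 30 combinations of gene and comparison, 22 stayed on the same side of the threshold in all 16 alternatives and 8 changed side in at least 1, with no reversal of a called direction. The number of the 10 genes higher in erastin-R, 1 in the report, was 2 with the unadjusted p and 1 to 3 when 1 library was left out. The number past the fold threshold between the survivors was 0 to 1 with 1 library left out. MBOAT2 in RSL3-R against vehicle lost its call in 12 alternatives, LPCAT2 between the survivors in 10, and ACSL4 between the survivors gained one in 6, among them DESeq2 (adjusted p = 0.0457) and limma (adjusted p = 0.0205). The cause was not tested. In the lists, in RSL3-R against vehicle, 4 synthetases were called in the report and 7 with the 2 groups alone or the unadjusted p. Of the acyltransferases 2 were called in the report, 5 with limma, 4 with a mean FPKM of at least 1 and 5 with the 2 groups alone. Of the phospholipases 5 were called in the report and 8 with the 2 groups alone. With 1 library left out, the numbers called were 4 to 8 synthetases, 1 to 5 acyltransferases, 4 to 8 phospholipases and 2 to 5 thioesterases. With a mean FPKM of at least 1, fewer genes were tested, and all genes past the fold threshold numbered 665 higher and 590 lower in erastin-R (1084 and 1078 in the report), 572 and 424 in RSL3-R (975 and 660), and 539 and 332 between the survivors (1111 and 563). Every other scaling moved the median of all genes by less than 0.1 on the log2 scale.

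Libraries with the same replicate number did not deviate together. The mean correlation of their deviations was -0.0049 over 9 pairs of libraries, with a range of -0.0904 to 0.0518. The numbers are therefore not taken to pair samples. The mean of 0.0026 over the 18 other pairs is no independent reference, because deviations from the group mean cancel out within each group. With the replicate number as a block, 6 of the 10 genes were called in erastin-R, 6 in RSL3-R and 5 between the survivors, against 6, 7 and 6 in the report, the losses being MBOAT2 (adjusted p = 0.0708) and LPCAT2 (adjusted p = 0.0564). MBOAT1 rests on 29 to 97 counts per library and LPCAT3 on 103 to 170. The intervals of MBOAT1 are the widest of the 10 genes, followed by those of LPCAT2 and then LPCAT3.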
